A study of Mus musculus with 18 samples.

Results

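The comparison described here is between mouse melanoma cells in which the short C/EBPβ isoform LIP was induced with doxycycline and cells in which it was not, both harvested after 5 h of tunicamycin. It was taken by title: the 3 arrays of cells given doxycycline and tunicamycin for 5 h were set against the 3 arrays of cells given tunicamycin alone for 5 h. These are 6 of the 18 arrays of the series, and the comparison ran over 19938 genes. The series holds 3 independent experiments, each with a vehicle control and 5 treatments, so that every group has 3 arrays, 1 per experiment. Whole-transcript expression was measured on one-colour arrays from total RNA.

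All groups were cultures of B16 F10.9-4, a subline of the mouse B16 melanoma, grown in the same serum-containing medium. The 5 h control group (here tunicamycin 5 h) received tunicamycin with no doxycycline. The 5 h LIP group (here doxycycline and tunicamycin 5 h) was first given doxycycline, which induces LIP overexpression in this line according to the labels, and then tunicamycin. The other groups used below are the vehicle group (0 h, without either agent), doxycycline alone at 0 h, and the same pair of treatments harvested after 12 h of tunicamycin. The doses and the length of the doxycycline pretreatment are not given in the sources used here. Every group with induced LIP also carries doxycycline, and no doxycycline-treated culture without the LIP construct was analysed here, so LIP and the drug itself cannot be told apart. The 3 arrays of a group are cultures of 1 cell line from separate experiments, so the spread between them is that between experiments in this line.

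C/EBPβ is a basic leucine zipper transcription factor that is translated from 1 messenger RNA into long activating isoforms and the short LIP (liver-enriched inhibitory protein). LIP keeps the DNA-binding and dimerisation domain but lacks most of the activation domain, and it is best known as an antagonist of the long isoforms. Tunicamycin blocks the first step of N-linked glycosylation, so that glycoproteins misfold in the endoplasmic reticulum (ER) and the unfolded protein response begins. In that response the sensors PERK, IRE1 and ATF6 act on translation and on the transcription factors ATF4, CHOP (gene Ddit3) and XBP1, and C/EBP proteins are known dimer partners of ATF4 and CHOP.

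Levels are log2 intensities. Changes are differences of log2 group means, doxycycline and tunicamycin 5 h minus tunicamycin 5 h, and a gene is called higher or lower where its limma p-value, adjusted over all genes by Benjamini-Hochberg, is under 0.05. Arrays of the same 5 h group correlated at 0.997 to 0.999 across genes. The melanocyte identity of the line was read from 12 lineage markers. Of these, 12 of 12 lay above 6.07, the level under which 95% of olfactory and vomeronasal receptor genes fell. This level was passed by 70.6% of the genes outside those receptor families, so passing it was common. Of 21 markers of leukocytes, endothelium, epithelium, fibroblasts, adipocytes, hepatocytes and muscle, 8 lay above it. The mean level of these 21 was 5.90 to 6.03 in the tunicamycin 5 h arrays and 5.92 to 6.02 with doxycycline. The array of tunicamycin 5 h replicate 2 stood apart, with the largest residual standard deviation of the 18 arrays (0.113).

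Cebpb, the gene that encodes LIP and the longer isoforms, checked the labels. It read 9.47, 9.60 and 9.48 in the tunicamycin 5 h arrays and 11.31, 11.36 and 11.32 with doxycycline. The groups were far apart, and the change of 1.81 ± 0.071 (SE) was 3.51-fold, with an adjusted p of 2.83e-11. The probe set reads the whole gene and does not separate LIP from the longer isoforms. Doxycycline had raised Cebpb by 1.84 already at 0 h, and the difference between the changes at 5 h and 0 h was -0.03 (adjusted p = 0.947). Among the other measured C/EBP genes, Cebpd rose by 0.36, from 6.78, 6.86 and 6.78 to 7.15, 7.17 and 7.17, and the remaining 4 of the list, Cebpa, Cebpe, Cebpg and Ddit3, were not called.

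Across all genes, 2386 of 19938 (12.0%) were called at 5 h, 1348 higher (6.76%) and 1038 lower (5.21%). Most changes were small: the median size over the called genes was 0.29, and 27 genes rose and 11 fell by at least 2-fold. The median change over all genes was -0.013. The direction was the same in all 3 experiments for 2385 of the called genes, and the 3 arrays of one group did not overlap the 3 of the other for 2328. Both counts use the arrays that gave the calls, so they follow largely from the calls and are not separate support. The same holds where single genes named below are said not to overlap. Non-overlap alone was common, at 24.2% of all genes. Without tunicamycin 5 h replicate 2, 2243 genes were called and the balance turned, with 1093 higher and 1150 lower.

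**Figure D1:**
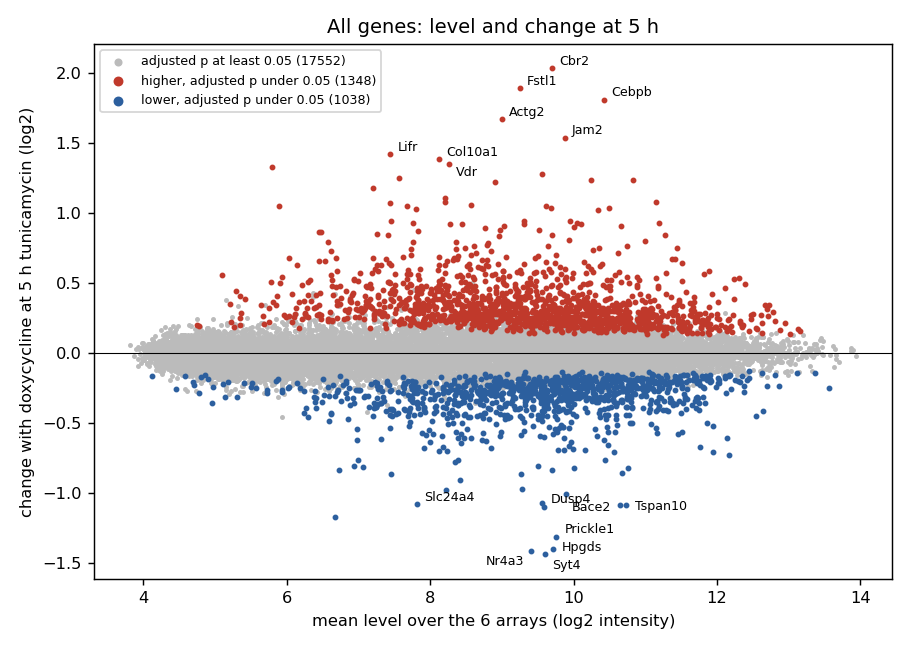
Change with doxycycline at 5 h of tunicamycin (vertical axis, log2) against the mean level over the 6 arrays (horizontal axis, log2 intensity), 1 point per gene, with the 1348 genes called higher in red, the 1038 called lower in blue and the others in grey. Cbr2, Fstl1 and Cebpb lie highest and Syt4, Nr4a3 and Hpgds lowest, and most called genes lie within 0.5 of zero.

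The largest rise was in Cbr2, a mitochondrial carbonyl reductase. Its levels were 8.83, 8.61 and 8.63 without and 10.86, 10.74 and 10.57 with doxycycline, a change of 2.03 ± 0.087 (SE, adjusted p = 6.17e-11) or 4.10-fold. Fstl1, a secreted glycoprotein of the follistatin family, went from 8.44, 8.19 and 8.28 to 10.26, 10.23 and 10.09 and rose by 1.89. For both genes every doxycycline array lay above every array without it. Actg2, the smooth muscle gamma-actin, rose by 1.67, from 8.42, 7.88 and 8.19 to 9.94, 9.82 and 9.74. Jam2, a junctional adhesion molecule, rose by 1.54, from 8.94, 9.16 and 9.23 to 10.60, 10.54 and 10.79. Lifr, the receptor subunit for leukaemia inhibitory factor, rose by 1.42 from a low level (6.76, 6.72 and 6.71) to 8.07, 8.21 and 8.18. These 3 genes also had no overlap between the groups.

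The next rises were 1.38 for Col10a1, a network-forming collagen, 1.35 for Vdr, the vitamin D receptor, and 1.33 for C1s1, a complement protease. C1s1 read 4.83, 5.06 and 5.52 without doxycycline, under the receptor-gene level of 6.07, and 6.52, 6.34 and 6.53 with it. Gstm7, a glutathione transferase, rose by 1.28, Itga5, the alpha chain of the fibronectin receptor, by 1.25, and Msrb3, a methionine sulfoxide reductase, by 1.24. The Itga5 arrays were tight, at 6.93, 6.92 and 6.95 without and 8.21, 8.20 and 8.15 with doxycycline. Each of these 12 largest rises was also positive at 0 h (0.53 to 1.84) and at 12 h (1.20 to 2.72).

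The largest fall was in Syt4, a synaptotagmin of secretory vesicles. It fell from 10.47, 10.15 and 10.36 to 9.02, 8.78 and 8.84, a change of -1.44 ± 0.070 (SE, adjusted p = 2.96e-10), 2.72-fold lower. Nr4a3, an orphan nuclear receptor and immediate early gene, fell from 10.29, 9.95 and 10.11 to 8.82, 8.52 and 8.76, a change of -1.41. Hpgds, the haematopoietic prostaglandin D synthase, fell from 10.64, 10.17 and 10.41 to 9.24, 8.76 and 9.01, a change of -1.40. In all 3 genes the lowest array without doxycycline lay above the highest with it. Hpgds fell by a like amount in each experiment while both groups were lower in experiment 2 than in the others.

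Prickle1, a planar polarity protein, changed by -1.31, and Dusp4, a phosphatase that switches off nuclear ERK, by -1.10. Bace2, a protease that processes the melanosome protein PMEL, and Tspan10, a tetraspanin of pigment cells, each changed by -1.09. Slc24a4, an ion exchanger linked to pigmentation, changed by -1.08, Bhlhe41, a basic helix-loop-helix repressor, by -1.07, and St3gal1, a sialyltransferase of O-linked glycans, by -1.01. Bnc2, a zinc finger protein linked to skin colour, changed by -0.98 and Insc, an adaptor of the spindle orientation complex, by -0.97. The 12 largest falls were all negative at 0 h (-0.79 to -1.29) and at 12 h (-0.997 to -1.48) too.

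**Figure D2:**
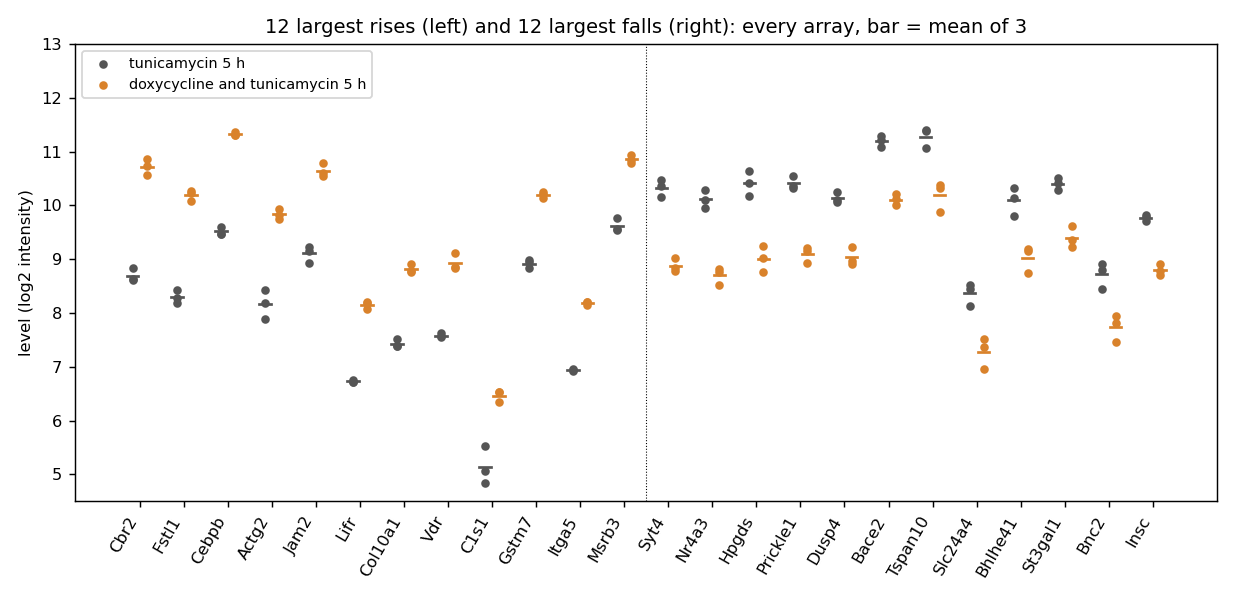
Level (log2 intensity, vertical axis) of the 12 genes with the largest rises (left of the dotted line) and the 12 with the largest falls (right), 1 point per array and a bar for the mean of 3, in grey for tunicamycin 5 h and in orange for doxycycline and tunicamycin 5 h. In each of the 24 genes all 3 orange points lie on one side of all 3 grey points. The genes were chosen by their change in these same arrays, so the separation is a description and not a test.

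Pigment cell genes were among the largest falls. The promoters of some pigment cell genes carry the M-box, the sequence read by MITF, the master transcription factor of melanocytes. RefSeq promoter windows (GRCm38.p6, 250 bases before to 50 after an annotated start) were used for 15614 of the 19938 genes and were searched on both strands for TCATGTG. The letters occurred in 2.82% of the 19177 windows of these genes. They occurred in 3.77% of the windows of genes called lower at 5 h and in 1.93% of those called higher. In the pigment list described below 6 of 12 windows held them, that of Tyrp1, which was not called, among them. That list was written from pigment genes with earlier results of these data known, so its share does not test the comparison. Over all 32851 windows searched, untested genes included, the share was 3.77%. Of the 12 largest falls 8 had a window, and 2 of these genes, Hpgds and Tspan10, carried the M-box. The following windows belong to the pigment cell genes with an M-box that fell most, and the capitals mark the M-box or its reverse complement.
Hpgds, chr6:65144681-65144980, minus strand: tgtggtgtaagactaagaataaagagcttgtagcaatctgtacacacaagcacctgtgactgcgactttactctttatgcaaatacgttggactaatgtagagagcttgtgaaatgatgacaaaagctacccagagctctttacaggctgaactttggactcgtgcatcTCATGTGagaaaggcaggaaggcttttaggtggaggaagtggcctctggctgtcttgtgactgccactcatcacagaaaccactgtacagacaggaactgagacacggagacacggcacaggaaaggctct
Mc1r, chr8:123406832-123407131, plus strand: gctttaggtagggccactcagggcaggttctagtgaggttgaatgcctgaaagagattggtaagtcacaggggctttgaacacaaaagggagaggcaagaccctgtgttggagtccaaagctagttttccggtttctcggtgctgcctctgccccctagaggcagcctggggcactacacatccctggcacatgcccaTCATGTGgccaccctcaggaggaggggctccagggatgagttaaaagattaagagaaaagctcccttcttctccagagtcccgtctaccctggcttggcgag
Tspan10, chr11:120442381-120442680, plus strand: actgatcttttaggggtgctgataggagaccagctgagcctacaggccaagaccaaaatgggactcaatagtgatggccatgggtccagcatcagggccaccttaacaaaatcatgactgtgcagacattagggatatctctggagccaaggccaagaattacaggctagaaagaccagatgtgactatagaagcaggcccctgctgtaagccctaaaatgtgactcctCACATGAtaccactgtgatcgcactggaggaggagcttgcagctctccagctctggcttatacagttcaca
Slc24a5, chr2:125067877-125068176, plus strand: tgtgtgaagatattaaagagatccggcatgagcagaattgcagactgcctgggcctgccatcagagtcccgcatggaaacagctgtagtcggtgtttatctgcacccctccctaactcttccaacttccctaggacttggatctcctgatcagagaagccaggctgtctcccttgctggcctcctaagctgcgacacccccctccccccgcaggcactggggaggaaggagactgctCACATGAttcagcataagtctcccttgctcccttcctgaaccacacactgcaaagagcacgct
The match is a description of these letters, and occupancy of the sites was not measured.

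Melanocyte regulators fell as a group. Of 19 measured regulators and receptors of the lineage, 11 fell and 0 rose, with a median change of -0.37 beside -0.013 over all genes. Mc1r, the melanocortin receptor that drives eumelanin synthesis, read 11.08, 11.05 and 11.20 without and 10.30, 10.21 and 10.24 with doxycycline, a change of -0.86. Mitf itself read 12.58, 12.49 and 12.54 without and 11.86, 11.64 and 11.92 with doxycycline, a change of -0.73 (adjusted p = 1.71e-07). Erbb3, a neuregulin receptor of the neural crest lineage, changed by -0.82. None of these 3 genes overlapped between the groups. Gpr143, the ocular albinism receptor of melanosomes, changed by -0.68, and Sox10, the neural crest factor that acts upstream of Mitf, by -0.42. At 0 h, without tunicamycin, doxycycline had already lowered 10 of the 19 genes and raised 0, beside 5.82% and 4.89% of all genes. In these bulk RNA samples a smaller share of pigmented cells and less pigment gene RNA per cell cannot be told apart.

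The pigment list moved the same way: 10 of 15 fell, 1 rose (Atp7a, a copper transporter, 0.17) and the median was -0.31. Besides genes for pigment synthesis and the melanosome matrix it holds Hpgds, its lowest member, Slc7a11, the cystine transporter (-0.32), and Ctsk, a cathepsin (0.04, adjusted p = 0.825). The count of falls was 6 without the arrays of replicate 3, and the rise of Atp7a was lost without any single tunicamycin 5 h array or without doxycycline and tunicamycin 5 h replicate 2 or 3. Slc24a5, the melanosomal cation exchanger whose promoter is printed above, read 12.43, 12.44 and 12.46 without and 11.88, 11.79 and 11.84 with doxycycline, a change of -0.61. Slc45a2, a melanosomal transporter, changed by -0.50, Pmel, the fibrillar matrix protein of melanosomes, by -0.45, and Mlana by -0.42. Of the 3 tyrosinase family enzymes, Tyr changed by -0.31 (adjusted p = 0.0426) and Dct by -0.25, while Tyrp1, at a mean level of 13.7, changed by -0.10 and was not called (adjusted p = 0.186). Over the 15 genes of the list doxycycline had lowered 9 and raised 0 already at 0 h.

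Melanosome transport was mixed, with 7 of 24 genes lower, 2 higher (1 without tunicamycin 5 h replicate 1 or 2 or without doxycycline and tunicamycin 5 h replicate 3) and a median of -0.03. The falls included Rab32 (-0.69) and Rab27a (-0.64), small GTPases of melanosome biogenesis and transport, Hps3 (-0.42) and Mlph, the linker of RAB27A to myosin Va (-0.36). Rab32 read 10.54, 10.40 and 10.56 without and 9.88, 9.75 and 9.79 with doxycycline.

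Contractile, caveolar and YAP-TEAD target genes rose together. Of the 34 gene lists counted, this one had the largest share of genes called higher (76.7%, beside 6.76% of all genes). These genes are known targets of the serum response factor SRF with its actin-sensing partners, or of YAP with TEAD factors. Of 30 measured, 23 rose and 0 fell, with a median change of 0.34, and 29 of 30 were above zero. Across the alternative processing choices and left-out arrays the number that rose stayed between 21 and 24. After Actg2, the largest rises were 1.05 for Lmod1, a leiomodin of smooth muscle, 0.93 for Ccn2, a matricellular YAP target, and 0.81 for Axl, a receptor tyrosine kinase. Ccn2 read 10.90, 10.69 and 10.60 without and 11.84, 11.66 and 11.48 with doxycycline. Axl read 9.54, 9.56 and 9.47 without and 10.30, 10.38 and 10.33 with it. The remaining rises included Cavin1 (0.69), which builds caveolae, the myosin light chain Myl9 (0.66), vinculin (Vcl, 0.57) and Ccn1 (0.46). Des, the muscle intermediate filament gene and the only one of the 21 markers of other cell types that rose, changed by 0.49. Over the 30 genes of the contractile list doxycycline had raised 16 and lowered 1 already at 0 h.

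The CArG box, the sequence read by SRF, was searched in the same way. It occurred in 1.41% of the windows of tested genes (1.63% of all windows), in 3 of 29 windows of the contractile list (Myl9, Cnn2 and Vcl) and in 2 of 25 windows of the melanocyte regulators (Lef1 and Tfe3), a list that fell. It also occurred in the windows of Cbr2, the largest rise, and Rnd3, an actin regulator described below, which are shown with the box in capitals.
Cbr2, chr11:120731972-120732271, minus strand: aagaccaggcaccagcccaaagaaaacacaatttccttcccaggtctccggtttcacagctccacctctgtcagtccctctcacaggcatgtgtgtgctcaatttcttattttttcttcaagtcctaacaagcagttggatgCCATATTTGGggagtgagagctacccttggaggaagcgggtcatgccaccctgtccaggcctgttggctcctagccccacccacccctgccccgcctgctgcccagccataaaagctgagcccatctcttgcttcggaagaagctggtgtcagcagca
Rnd3, chr2:51149062-51149361, minus strand: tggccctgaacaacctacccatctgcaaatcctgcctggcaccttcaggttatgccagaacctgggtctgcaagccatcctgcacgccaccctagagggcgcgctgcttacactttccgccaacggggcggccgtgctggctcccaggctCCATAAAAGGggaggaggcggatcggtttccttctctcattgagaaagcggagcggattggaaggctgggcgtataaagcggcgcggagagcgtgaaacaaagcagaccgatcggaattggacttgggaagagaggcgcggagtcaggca
Windows with a CArG box were 2.32% of those of genes called higher and 1.13% of those called lower. The C/EBP letters TTGCNNAA (N is any base) were searched too and were not more common among called genes. They occurred in 9.75% of the windows of tested genes, 8.25% of those called higher and 8.76% of those called lower. For the joint C/EBP-ATF letters TGATGNAA the shares were 3.08%, 2.71% and 3.20%.

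Integrin and adhesion genes rose more often than they fell, 13 against 2 of 32, with a median of 0.09. Besides Jam2 and Itga5 the rises included Itga1, a collagen receptor chain (0.77), while Itga4, the chain of the VCAM1 and fibronectin receptor VLA-4, fell from 10.77, 10.81 and 10.89 to 9.97, 10.02 and 10.18 (-0.77). Of 50 matrix genes 12 rose and 3 fell, with a median of 0.02. Thbs1, thrombospondin 1, rose by 1.23, from 10.35, 10.17 and 10.14 to 11.45, 11.48 and 11.43, and the laminin chains Lamb1 and Lama5 rose by 0.74 and 0.59. Without the arrays of replicate 3 the rises were 8 of 32 adhesion and 6 of 50 matrix genes, and without those of replicate 2 there were 7 adhesion rises.

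**Figure D3:**
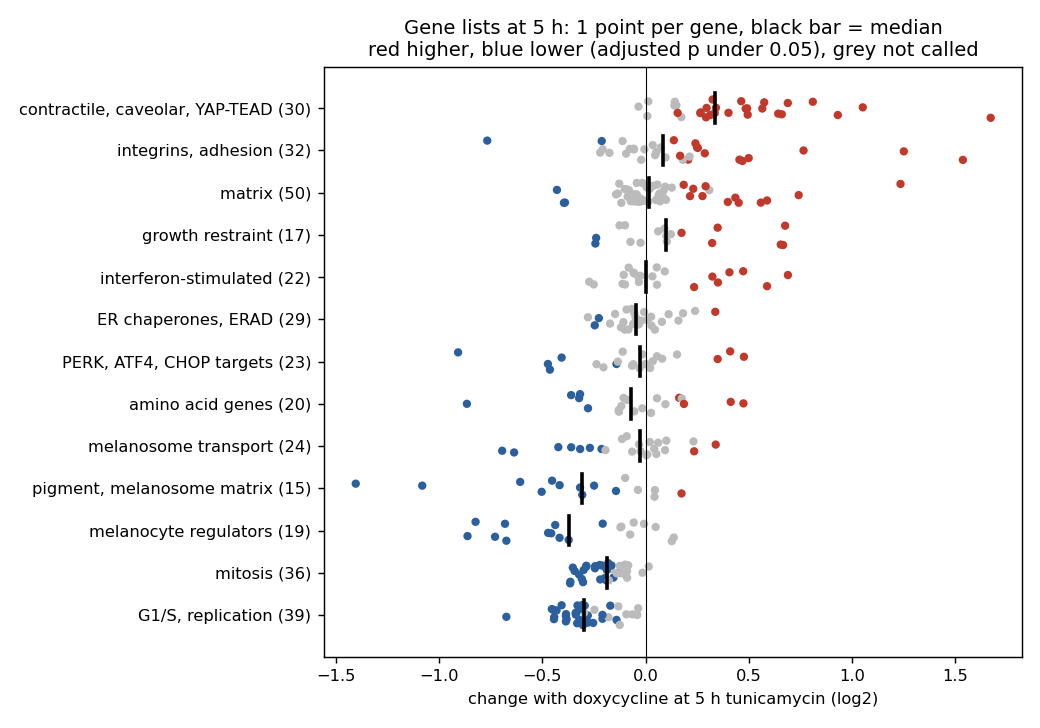
Change with doxycycline at 5 h of tunicamycin (horizontal axis, log2) for the genes of 13 lists, 1 point per gene, in red where called higher, blue where called lower and grey otherwise, with the number measured in brackets and a black bar at the median. The contractile list lies to the right with a median of 0.34, and the melanocyte regulator, pigment, mitosis and replication lists lie to the left with medians of -0.37, -0.31, -0.19 and -0.30.

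Cell cycle genes were lower. Of 39 genes for the G1/S transition and DNA replication, 30 fell and 0 rose, with a median of -0.30, and all 39 changes were below zero. Cdk2, the S-phase kinase gene, read 12.14, 12.04 and 12.13 without and 11.45, 11.39 and 11.45 with doxycycline, a change of -0.67 (adjusted p = 1.08e-08). Cdk2 lies next to Pmel in the genome and is a known MITF target, so it was counted in the melanocyte list too. E2f8, a cell cycle repressor of the E2F family, and Mcm3, a subunit of the replicative helicase, each changed by -0.45, and Cdc6, which loads that helicase, by -0.44. The 6 helicase subunits Mcm2 to Mcm7 all fell, with changes of -0.28 to -0.45. The count was 17 of 39 without the arrays of replicate 3 and 19 without those of replicate 1. At 0 h doxycycline had already lowered 24 of the 39 genes and raised 0.

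Of 36 mitosis genes, 24 fell and 0 rose, with a median of -0.19. Kif20b, a mitotic kinesin, read 10.19, 10.17 and 10.22 without and 9.88, 9.83 and 9.77 with doxycycline, a change of -0.36. Espl1, the separase that cuts cohesin, changed by -0.36, Ccnf, cyclin F, by -0.35 and Birc5, survivin, by -0.34. At 0 h doxycycline had lowered 1 of these 36 genes, with a median of -0.03, and at 12 h 33. The difference between the 5 h and 0 h changes had a median of -0.13 over the list beside -0.013 over all genes, and it passed the threshold in 0 of the 36 genes. The count at 5 h depended on the arrays: it was 15 without replicate 2 or without replicate 3 of the doxycycline and tunicamycin 5 h group, 13, 12 and 8 without all arrays of replicates 1, 2 and 3, and 11 when only the compared groups were fitted.

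Genes that restrain growth were higher in 6 and lower in 2 of 17. Gadd45b rose by 0.68, Gadd45g by 0.67 and Gadd45a by 0.35, all of them stress-induced partners of cell cycle kinases and MAP kinase kinases. The call of Gadd45a was kept in only 14 of 18 alternatives, with limma adjusted p-values up to 0.183. Btg2, an antiproliferative cofactor of mRNA decay, rose by 0.65, from 7.94, 7.84 and 7.95 to 8.60, 8.50 and 8.59. Rbl1 and Rbl2, the pocket proteins p107 and p130, each changed by -0.24, and no gene of the list was called lower without the arrays of replicate 3. Myc fell from 12.33, 12.27 and 12.29 to 11.70, 11.53 and 11.55, a change of -0.71.

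Targets of the unfolded protein response moved in both directions. Of 23 targets of PERK, ATF4 and CHOP, 3 rose and 5 fell, with a median of -0.03. Nupr1, a stress-induced chromatin protein, fell from 8.84, 8.70 and 9.06 to 8.04, 7.83 and 8.01, a change of -0.91 (adjusted p = 9.09e-07). Chac1, which degrades glutathione, changed by -0.47, Atf3, an ATF4 target and repressor, by -0.46 and Herpud1, a component of ER-associated degradation, by -0.41. Atf5 rose by 0.48, from 7.92, 7.98 and 8.13 to 8.48, 8.48 and 8.50, and Sesn2, a sestrin that restrains mTORC1, rose by 0.41. The call of Atf3 was lost in 1 of 18 alternatives, with adjusted p-values from 1.37e-05 to 0.0629, and the falls in the list were 3 without the arrays of replicate 3.

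Ddit3, which encodes CHOP, read 9.85, 9.79 and 10.04 without and 9.67, 9.60 and 9.82 with doxycycline. The groups overlapped, and the change of -0.20 was not called (adjusted p = 0.144), but each experiment gave a negative difference (-0.18, -0.20 and -0.23). Of 18 alternatives 1, array weights, called Ddit3 lower, and the adjusted p-values ran from 0.0101 to 0.461. Trib3, a pseudokinase induced by CHOP, changed by -0.24 (adjusted p = 0.111). It was called lower in 3 of 18 alternatives, 1 of them without tunicamycin 5 h replicate 2, with adjusted p-values from 0.00442 to 0.415. Atf4 rose by 0.28, from 10.28, 10.02 and 10.15 to 10.50, 10.38 and 10.40 (adjusted p = 0.00367), a call that 2 of 18 alternatives lost, with adjusted p-values from 0.000694 to 0.0866.

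For these genes the response to tunicamycin itself can be set beside the change with doxycycline. Over all genes 9.02% were called for 5 h of tunicamycin against vehicle, and 12.1% for the same step within doxycycline-treated cells. The 5 h tunicamycin arrays against the vehicle ones gave rises of 1.17 for Ddit3, 1.17 for Trib3, 1.55 for Chac1, 0.73 for Nupr1 and 0.66 for Atf3. Within doxycycline-treated cells the same 5 h of tunicamycin gave 1.32 for Ddit3, 0.83 for Trib3, 1.24 for Chac1, 0.16 for Nupr1 (adjusted p = 0.31) and 0.25 for Atf3. These comparisons share arrays with the LIP comparison. The test of the difference, which is the change with doxycycline at 5 h minus that at 0 h, gave -0.57 for Nupr1 (adjusted p = 0.150), -0.41 for Atf3 (adjusted p = 0.338), -0.33 for Trib3 (adjusted p = 0.503) and 0.14 for Ddit3 (adjusted p = 0.767), so none of these responses was shown to differ.

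Of 11 sensors and transcription factors of the response, Atf4 among them, 3 rose and 1 fell, a share of 36.4% beside the 12.0% of all genes. The fall was Ern1, the gene of IRE1, which went from 10.26, 10.11 and 10.27 to 9.74, 9.58 and 9.70, a change of -0.54 with no overlap between the groups. Atf6 rose by 0.19 and Mbtps1, the protease that activates ATF6, by 0.16. The call was lost in 10 of 18 alternatives for Atf6 (adjusted p up to 0.220) and in 11 of 18 for Mbtps1 (up to 0.275). The 3 rises of the list were 1 without tunicamycin 5 h replicate 1 or 2 or without doxycycline and tunicamycin 5 h replicate 1 or 3, and 0 without the arrays of replicate 3 or when only the compared groups were fitted. Xbp1 was not called (adjusted p = 0.988).

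Of 29 ER chaperones and ER-associated degradation genes, 1 rose and 2 fell, a share of 10.3% beside the 12.0% of all genes. Hspa5, the chaperone BiP, read 12.89, 12.86 and 12.94 without and 12.84, 12.83 and 12.88 with doxycycline, a change of -0.05 (adjusted p = 0.696). Dnajb9, an XBP1-dependent co-chaperone, changed by 0.24 (adjusted p = 0.0555, and from 0.0202 to 0.270 over 18 alternatives). Wfs1, an ER membrane protein, rose by 0.34, Pdia6, a disulfide isomerase, changed by -0.25 and Sdf2l1, an ER chaperone cofactor, by -0.23, a call lost in 8 of 18 alternatives. The falls were 5 without tunicamycin 5 h replicate 2, 1 without tunicamycin 5 h replicate 3 or doxycycline and tunicamycin 5 h replicate 2, and 7 with array weights, and the rises were 3 without tunicamycin 5 h replicate 3. In the same list doxycycline lowered 12 and raised 1 of 29 genes at 0 h, beside 5.82% and 4.89% of all genes. At 12 h it lowered 0 and raised 6, beside 7.77% and 6.95% of all genes. The difference between the 5 h and 0 h changes passed the threshold in 0 of the 29 genes. That between the 12 h and 5 h changes passed in 1, Pdia6, which was higher by 0.34. The 12 h change of Pdia6 was 0.10 and was not called (limma adjusted p = 0.215), so a turn over time was not shown for any single gene of the list.

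N-linked glycosylation, the pathway that tunicamycin blocks, had 5 of 30 genes lower and 0 higher, a share of 16.7% beside the 12.0% of all genes. Alg6, a glucosyltransferase of the lipid-linked precursor, fell from 10.72, 10.72 and 10.77 to 10.17, 10.07 and 10.10, a change of -0.62. Dpagt1, the enzyme that tunicamycin inhibits, changed by -0.19 (adjusted p = 0.0394), a call lost in 9 of 18 alternatives, with adjusted p-values up to 0.284. The number of falls ranged from 1 to 8 over the alternatives and was 3 without any single one of the tunicamycin 5 h arrays 1 or 3 or the doxycycline and tunicamycin 5 h arrays 2 or 3. Of 32 genes for translocation and the secretory pathway 2 rose and 2 fell, a share of 12.5% beside the 12.0% of all genes, with Kdelr3, a retrieval receptor for ER proteins, up by 0.61 from 8.45, 8.21 and 8.40 to 9.05, 8.99 and 8.88.

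Amino acid genes, many of them ATF4 targets, moved in both directions: 4 of 20 rose and 5 fell, 45% beside the 12.0% of all genes. Slc1a4, a neutral amino acid transporter, fell from 9.77, 9.49 and 9.82 to 9.02, 8.64 and 8.83, a change of -0.86. Got1, the cytosolic aspartate transaminase, changed by -0.36. Slc6a9, a glycine transporter, rose by 0.47, from 10.59, 10.67 and 10.70 to 11.14, 11.12 and 11.13, and Cth, which makes cysteine, rose by 0.41. Of 18 tRNA synthetases 3 fell and 1 rose, 22.2% beside the 12.0% of all genes, led by Cars, the cysteinyl-tRNA synthetase (-0.39). The synthetase rise was lost without tunicamycin 5 h replicate 2 or without doxycycline and tunicamycin 5 h replicate 3. The amino acid rises were 2 without tunicamycin 5 h replicate 3 alone and 2 without the arrays of replicate 1 or of replicate 3, and the falls were 3 without those of replicate 3.

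Signalling genes were also mixed, and their counts stand beside 6.76% of all genes higher and 5.21% lower. Of 22 immediate early genes 4 rose and 3 fell, the falls being Nr4a3, Myc and Atf3. Fos rose by 0.49, from 7.99, 7.72 and 7.92 to 8.54, 8.35 and 8.20. Of 18 genes of MAP kinase feedback 4 rose and 4 fell: the phosphatases Dusp4 (-1.10) and Dusp2 (-0.40) were among the falls, while the transcription factors Etv1 (0.49) and Etv5 (0.43) rose. Without the arrays of replicate 1, 2 immediate early genes rose, and 2 feedback genes rose and 2 fell. Of 25 TGF-beta and BMP pathway genes 5 rose and 1 fell (0 without doxycycline and tunicamycin 5 h replicate 1), with a median of 0.02. All 3 TGF-beta ligand genes rose, Tgfb3 by 0.60, Tgfb1 by 0.44 and Tgfb2 by 0.38. The call of Tgfb2 was lost without the arrays of replicate 3 (limma adjusted p = 0.0575). Tgfb1 read 7.57, 7.42 and 7.53 without and 7.85, 8.01 and 7.97 with doxycycline.

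The change with doxycycline at 5 h resembled that at 0 h, which comes from 6 other arrays. At 0 h 2135 genes (10.7%) were called, 974 higher (4.89%) and 1161 lower (5.82%). The lists shared 1318 genes, 55.2% of the 5 h list and 61.7% of the 0 h list, and 1316 of them had the same direction. The exceptions were Cav1 and Pde4b, lower at 0 h and higher at 5 h. Over all 19938 genes the changes correlated at r = 0.67, and over the 13293 genes above the receptor level at r = 0.74, as a description across genes that are not independent. Of the genes called at 5 h, 1900 (79.6%) changed more at 5 h than at 0 h, which is in part a property of choosing them at 5 h.

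The difference between the changes at 5 h and 0 h passed the threshold in 6 genes (0.0301%), all higher at 5 h, and 1651 genes had an unadjusted p under 0.05. Cav1, the caveolin that forms caveolae, read 8.14, 8.07 and 8.12 with vehicle and 7.74, 7.69 and 7.72 with doxycycline at 0 h, but 8.57, 8.31 and 8.44 without and 8.90, 8.88 and 8.74 with doxycycline at 5 h. Its change was thus -0.39 at 0 h and 0.40 at 5 h, a difference of 0.79 ± 0.11 (SE, adjusted p = 0.0197). Doxycycline arrays were the lower group at 0 h and the higher group at 5 h, with no overlap at either time.

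The other 5 changed by -0.21 to 0.34 at 0 h. Tagln, transgelin, an actin-binding protein of smooth muscle, changed by 0.05 at 0 h and by 0.57 at 5 h, a difference of 0.52 (adjusted p = 0.0212). Rnd3, whose product lowers actomyosin contraction, changed by 0.11 and 0.70, a difference of 0.58 (adjusted p = 0.0212). Its levels were 9.09, 9.0 and 9.06 with vehicle, 9.14, 9.17 and 9.18 with doxycycline, 9.31, 9.07 and 9.11 after 5 h of tunicamycin, and 9.89, 9.88 and 9.80 with both. Only the group with both agents stood clear of the others. Socs2, a cytokine signalling suppressor, changed by -0.21 and 0.49, a difference of 0.69 (adjusted p = 0.0334). Osgin2 changed by 0.18 and 0.88, a difference of 0.69 (adjusted p = 0.0288). Pwwp3b changed by 0.34, which was called at 0 h (adjusted p = 0.00746), and by 1.07, a difference of 0.73 (adjusted p = 0.0212).

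These 6 calls were fragile. Without tunicamycin 5 h replicate 2, the array that stood apart, 0 genes passed. The count was also 0 without tunicamycin 5 h replicate 3, without replicate 1 or 2 of doxycycline and tunicamycin 5 h, and without any of the 3 vehicle arrays, 2 without doxycycline replicate 1 or 3, and 15 without tunicamycin 5 h replicate 1. Leaving out all arrays of replicate 1 or of replicate 3 gave 0 too, and leaving out those of replicate 2 gave 3. The sizes moved less: over 24 alternatives the difference for Cav1 ranged from 0.71 to 0.86, with adjusted p-values from 0.000912 to 0.294.

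**Figure D4:**
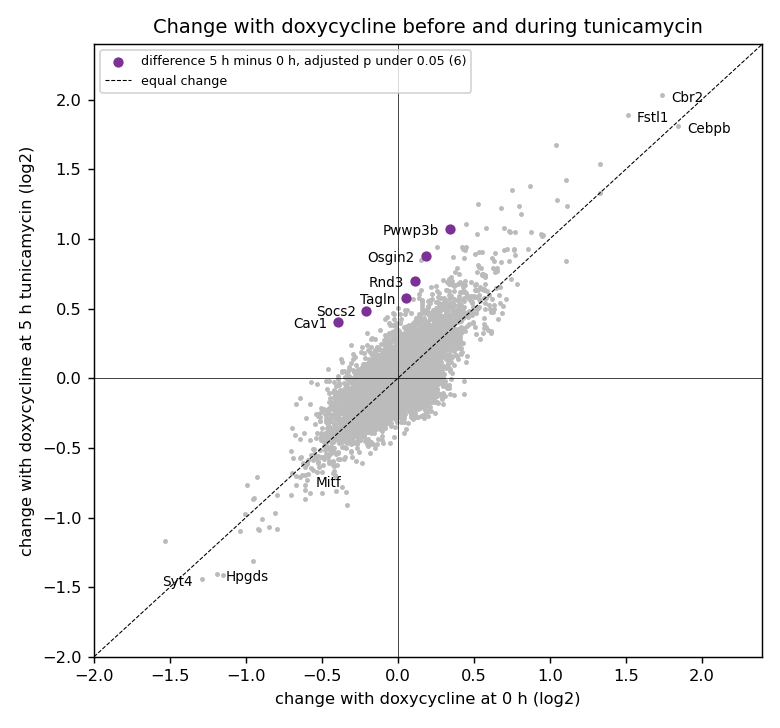
Change with doxycycline at 5 h of tunicamycin (vertical axis, log2) against the change at 0 h (horizontal axis, log2), 1 grey point per gene, with the 6 genes whose difference passed the threshold in purple and a dashed line of equal change. The purple genes lie above the line, between Cav1 at -0.39 and Pwwp3b at 0.34 on the horizontal axis, and Cebpb lies on it.

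At 12 h of tunicamycin, again on other arrays, 2936 genes (14.7%) were called, 1386 higher (6.95%) and 1550 lower (7.77%). The 5 h and 12 h lists shared 1604 genes, 67.2% of the 5 h list and 54.6% of the 12 h list, and 1590 had the same direction. The 14 that turned included Gadd45a (0.35 at 5 h and -0.30 at 12 h), Isg20, an exonuclease induced by interferon (0.46 and -0.40), Cdsn, a desmosomal adhesion protein (0.40 and -0.57), Itgb5 (0.25 and -0.23), Pik3r1 (0.29 and -0.29) and Pink1, the kinase that marks damaged mitochondria (0.29 and -0.48). These 6 were named after their values were seen, and the 5 h call of Gadd45a was kept in only 14 of 18 alternatives. Each passed the test of the 12 h change against the 5 h change, with differences from -0.48 for Itgb5 to -0.97 for Cdsn.

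The difference between the 12 h and 5 h changes passed in 140 genes (0.702%), 42 higher (0.211%) and 98 lower (0.492%) at 12 h. Of these 70 were called at 5 h and 113 at 12 h. Ogn, osteoglycin, a small proteoglycan of the matrix, was near background at 5 h, at 4.93, 4.57 and 4.95 without and 5.32, 5.28 and 5.53 with doxycycline. At 12 h it read 5.23, 5.39 and 5.37 without and 8.75, 8.52 and 8.88 with doxycycline, and the change was larger by 2.83 (adjusted p = 3.39e-09). Itga5 changed by 0.53 at 0 h, 1.25 at 5 h and 2.72 at 12 h, and the step from 5 to 12 h was 1.47 (adjusted p = 2.62e-05), while that from 0 to 5 h was 0.72 (adjusted p = 0.149). Ptprd, a receptor phosphatase, gained 0.95 and Suox, sulfite oxidase, 0.96.

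The largest steps down were in genes that tunicamycin alone had raised by 12 h and that were near their 0 h level at 5 h. Hmox1, haem oxygenase 1, read 9.48, 9.29 and 9.49 without and 9.19, 9.21 and 9.09 with doxycycline at 5 h, a change of -0.26, whose call was lost in 6 of 18 alternatives. At 12 h it read 10.48, 10.57 and 10.51 without and 8.68, 9.02 and 8.79 with doxycycline, so that the change was -1.69 and the step -1.43 (adjusted p = 3.04e-07). Dthd1, a death domain protein, stepped by -1.80, Nat8f5, of the N-acetyltransferase 8 family, by -1.33 and Lcn2, lipocalin 2, by -1.12, and none of these 3 was called at 5 h. Cebpb itself had a smaller change at 12 h than at 5 h, by -0.59 (adjusted p = 0.00621), as its level without doxycycline rose from 9.47, 9.60 and 9.48 at 5 h to 10.38, 10.23 and 10.28 at 12 h. Leaving out single arrays gave 95 to 199 genes past the threshold for this step.

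**Figure D5:**
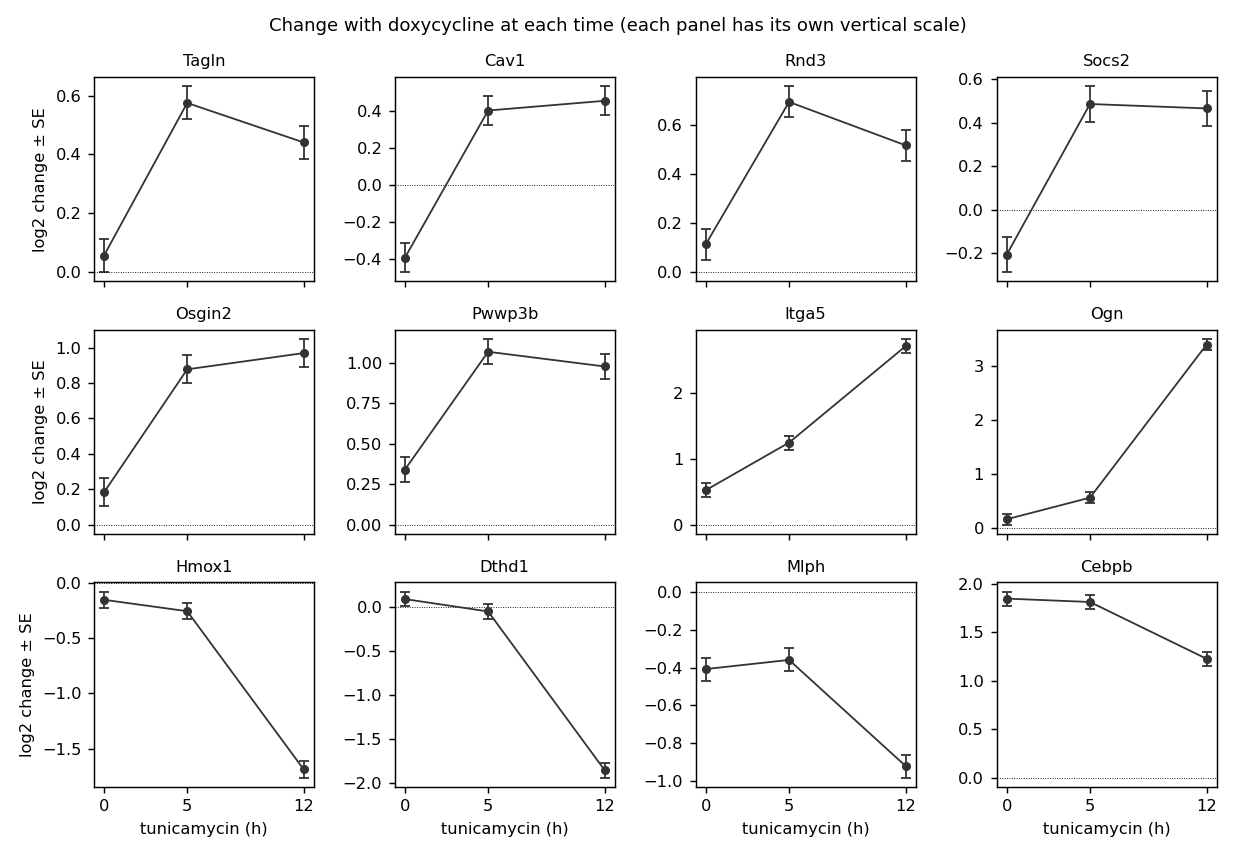
Change with doxycycline (vertical axis, log2, ± SE from the fit) at 0, 5 and 12 h of tunicamycin (horizontal axis) for 12 genes, each panel with its own vertical scale. Tagln, Rnd3, Osgin2 and Pwwp3b reach their change by 5 h, while Ogn, Hmox1 and Dthd1 change mostly between 5 and 12 h.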

How the data were processed

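Per the submitters' processing notes, the authors processed the arrays with RMA and Partek, and the deposited values are log2 intensities for 35557 probe sets. Versions, build and filters are not given in the sources used here. Probe sets were named from the platform annotation: 21789 had 1 gene symbol, 1621 several and 12147 none. Only the first were used, with the brightest probe set per gene over all arrays where a gene had several (999 genes), giving 19938 genes. Close gene copies, such as those of C1s1, Gstm7 and Nat8f5, may share probes.

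The fit used limma 3.58.1 in R 4.3.3 (lmFit, contrasts.fit, eBayes) with means of the 6 groups over all 18 arrays, 12 residual degrees of freedom, Benjamini-Hochberg adjustment over all 19938 genes and a threshold of 0.05. The script was tested on simulated data. The number of arrays limits the precision. Background was taken as the 95th percentile (6.07) of 1196 olfactory and vomeronasal receptor genes.

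The comparison and the 34 gene lists (857 entries, 51 of them not matched) were chosen with earlier results of these data known, and a list is given by counts and its median. Genes named are the 12 largest rises and 12 largest falls at 5 h, the extremes of the 2 difference tests (6 and 4 each way), up to 4 called members per list, and a fixed set of stress genes (Xbp1, Hspa5 and Dnajb9, with Atf3, Atf4, Ddit3 and Trib3) and Cebpb. Predicted, small RNA, receptor and histone genes were left out of the largest changes, and further list members were named after their values were seen.

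The replicate number marks 1 of 3 independent experiments, per the labels. The deviations of the 45 same-number pairs of arrays correlated at a median of 0.04 (-0.50 to 0.50), and 14 exceeded 0.1, so the numbers were not used as a block. For the 5 h groups the correlations were 0.47, 0.50 and 0.11. Alternatives covered the filter, normalization, variance model, weights, the block, the samples fitted and each replicate left out.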

Additional observations from a re-analysis of the deposited data

Results flagged for a closer look

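The change with doxycycline differed between 5 h and 0 h in 6 genes by the test of the difference itself (limma, Benjamini-Hochberg): Cav1 by 0.79, Pwwp3b by 0.73, Osgin2 by 0.69, Socs2 by 0.69, Rnd3 by 0.58 and Tagln by 0.52 on the log2 scale. In all 6 the change was higher at 5 h. The count of such genes was 0 without tunicamycin 5 h replicate 2, and also without several other single arrays, as given above.

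Between 12 h and 5 h the change differed in 140 genes. The extremes were Ogn (2.83), Itga5 (1.47), Suox (0.96) and Ptprd (0.95) upward, and Dthd1 (-1.80), Hmox1 (-1.43), Nat8f5 (-1.33) and Lcn2 (-1.12) downward.

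Probe sets with several gene symbols or none were outside the comparison. When they were fitted on their own, 149 of 13768 (1.08%) passed the same threshold at 5 h, 79 higher and 70 lower.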

How the results depend on the processing

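The 144 called genes of the 152 named at 5 h kept their direction under all alternatives run, and 99 of them stayed called in every one. Of the uncalled ones Xbp1, Dthd1 and Lcn2 changed sign under some alternatives, with no call on either side. The 5 h count of 2386 genes was 38 when a 2-fold change was also required, 3605 with array weights (1832 lower) and 1413 when only the compared groups were fitted (852 higher, 561 lower). With the replicate block it was 2438. Leaving out replicates gave 1012 to 2243 genes, 643 to 1249 higher and 369 to 1150 lower. The count for 5 h minus 0 h (6, all higher) was 15 with array medians set equal (15 higher), 27 with a variance trend and robust estimation (24 higher, 3 lower), 119 with array weights (70 higher, 49 lower) and 2 when only the compared groups were fitted (2 higher). Quantile normalization and the replicate block each gave 1 lower gene there. Leaving out replicates gave 0 to 15, with 0 to 14 higher and 0 to 1 lower. The count for 12 h minus 5 h (140) was 219 with the trend (74 higher), 234 with array weights (111 higher), 219 with a component of the receptor genes as covariate (91 higher) and 66 when only the compared groups were fitted (18 higher, 48 lower). Quantile normalization gave 88 higher there. Leaving out replicates gave 28 to 199, with 9 to 47 higher and 19 to 152 lower. The cause was not tested, apart from the fewer arrays in the fits of compared groups and left-out replicates. Genes near the receptor level, C1s1 and Ogn among them, are limited by signal over background: 57 of the 2386 called genes lay under it.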

Other observations

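Several further gene groups were counted at 5 h. Interferon-stimulated genes rose in 7 of 22 and fell in 0, beside 6.76% and 5.21% of all genes, although the median of the list was 0.00. Ddx58, the RNA sensor RIG-I, read 8.03, 8.03 and 8.08 without and 8.80, 8.66 and 8.74 with doxycycline and rose by 0.69. Its relative Ifih1, the sensor MDA5, rose by 0.59, Gbp3, a guanylate-binding protein, by 0.47 and Bst2, tetherin, by 0.41. Among 13 antigen presentation genes 2 rose, Erap1 by 0.53 and Tapbp by 0.31, and Cd274, the checkpoint ligand PD-L1, changed by -0.37. Of 29 inflammatory and secreted factors 3 rose and 1 fell, a share of 13.8%, near the 12.0% of all genes. Csf1, the macrophage growth factor, rose by 0.55 and Lif, the ligand of the receptor whose subunit Lifr is described above, by 0.52, while the chemokine gene Cxcl10 changed by -0.57.

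Over all genes 6.76% were called higher and 5.21% lower, beside which the counts of this paragraph can be set. Lysosomal genes rose in 6 of 26 and fell in 0, led by the cathepsin Ctsh (0.41), and autophagy genes rose in 5 and fell in 1 of 24, led by Map1lc3a (0.51). Without the arrays of replicate 1 or of replicate 3 each of these lists had 2 rises, and the autophagy fall was lost without any 1 of the 6 arrays. Of 28 antioxidant and NRF2-linked genes 5 rose and 4 fell, with Cbr2, Msrb3 and Nqo1 (0.53) among the rises and Cbr3 (-0.39, a call lost in 7 of 18 alternatives) among the falls. The rises were 3 without doxycycline and tunicamycin 5 h replicate 1, and the falls were 2 without tunicamycin 5 h replicate 1 or without doxycycline and tunicamycin 5 h replicate 3. Without the arrays of replicate 1, 2 or 3 the rises were 3 each time, and the falls were 1, 3 and 0. Among 15 heat shock genes there was a single call, 6.67% beside the 12.0% of all genes. It was Hspb1, a small heat shock protein, which went from 7.71, 7.51 and 7.79 to 8.79, 8.67 and 8.79 and rose by 1.08. Metal genes rose in 3 and fell in 5 of 16, with Tfrc, the transferrin receptor, at -0.51 and Slc40a1, the iron exporter, at 0.42. These falls were 3 without tunicamycin 5 h replicate 1 or without doxycycline and tunicamycin 5 h replicate 2, and without the arrays of replicate 3 there was 1 rise and 1 fall. Without the arrays of replicate 1 the falls were 3. Sterol and lipid genes fell in 6 and rose in 0 of 26, led by Cyp51 (-0.44) and Insig1 (-0.36), with 2, 3 and 3 falls without the arrays of replicates 1, 2 and 3. Of 15 adipocyte genes linked to C/EBP factors 3 rose and 1 fell, with Fabp5 at -0.41. The 3 rises were 1 without doxycycline and tunicamycin 5 h replicate 3, and 0 without the arrays of replicate 1 or 3 or when only the compared groups were fitted. Hypoxia and glycolysis genes had 1 rise and 1 fall in 23 (8.70% beside the 12.0% of all genes), Ndrg1 (-0.58) being the fall. The rise was lost without doxycycline and tunicamycin 5 h replicate 3. Of 31 BCL2 family and death genes 2 rose and 3 fell, 16.1% beside the 12.0% of all genes. Both counts were 0 without the arrays of replicate 2 or of replicate 3, without doxycycline and tunicamycin 5 h replicate 3 alone, and when only the compared groups were fitted. The rises were also 0 without tunicamycin 5 h replicate 2 or doxycycline and tunicamycin 5 h replicate 2, and the falls 0 without tunicamycin 5 h replicate 1. Of 21 p53 targets 3 rose and 0 fell, 14.3% beside the same 12.0%, led by Btg2 and Plk2 (0.46). Des rose and Cd68 fell (-0.41) among the 21 markers of other cell types, a share of 9.52% beside the 12.0% of all genes.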
